A study of Capra hircus with 10 samples.

Results

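The 10 Notch pathway genes described here were chosen by symbol among the protein-coding transcripts of the goat ovary, and all 10 were in the table, which holds 20587 gene symbols. They are the receptors NOTCH1, NOTCH2, NOTCH3 and NOTCH4, the ligands DLL4, JAG1 and JAG2, and the target genes HES1, HEY1 and HEYL. Their RNA was measured in whole ovaries of Anhui white goats, with 5 luteal phase and 5 follicular phase ovaries, collected at a slaughterhouse, and no treatment is named. Neither the age of the goats nor whether every ovary came from a different goat is stated in the sources used here, so the p-values measure the spread between these ovaries. Expression is given as FPKM, a count of sequenced fragments adjusted for transcript length and library size, and is summed over the transcripts of a gene.

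Notch receptors are transmembrane proteins that bind a ligand of the Delta-like (DLL) or Jagged (JAG) family on a neighbouring cell. Ligand binding leads to cleavage of the receptor, and its intracellular part moves to the nucleus, where it joins the DNA-binding protein RBPJ and a Mastermind-like coactivator and switches on repressor genes of the HES and HEY families. In the mammalian ovary the pathway is known for contact between oocytes and granulosa cells in early follicles, and in blood vessels for sprouting of endothelial cells and for the coat of mural cells around them.

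Between the phases, 4 of the 10 genes changed. The receptor NOTCH2 and the target HES1 were lower in the luteal phase, and the receptor NOTCH1 and the target HEYL were higher. HEYL had the largest difference of the 10 on the log2 scale, with a mean of 6.10 ± 1.04 FPKM in luteal and 2.94 ± 0.756 in follicular phase ovaries, and NOTCH2, the most abundant of the 10, had 20.7 ± 4.06 and 31.2 ± 4.63 FPKM (SD, n = 5 each). The remaining 6 genes, among them all 3 ligands, did not pass the test. The test was limma (two-sided) on log2(FPKM + 0.1), with differences taken as luteal minus follicular, and genes were called at a Benjamini-Hochberg adjusted p under 0.05 over all 15359 genes tested. Over all these genes 43.7% were called, 15.9% higher and 27.8% lower in the luteal phase, so 4 calls among 10 genes is close to the background share at this setting. The luteal share of all calls was 36.3%, and it was 48.8% with aligned medians, 41.8% with quantile normalization and 52.5% on the TPM scale. The split of the calls depended on scaling, since aligning the medians of the ovaries gave 5 higher and 1 lower, quantile normalization 5 and 2, and the TPM scale 2 and 1. Of all genes tested, 38.8%, 41.9% and 35.8% were called at these settings. Leaving out luteal phase replicate 2 gave 4 higher and 2 lower, with 39.6% of all genes called, and 7 of the other 9 analyses without an ovary gave 1 higher and 2 lower. Over the 10 analyses without an ovary, 35.7 to 45.6% of all genes were called.

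**Figure D1:**
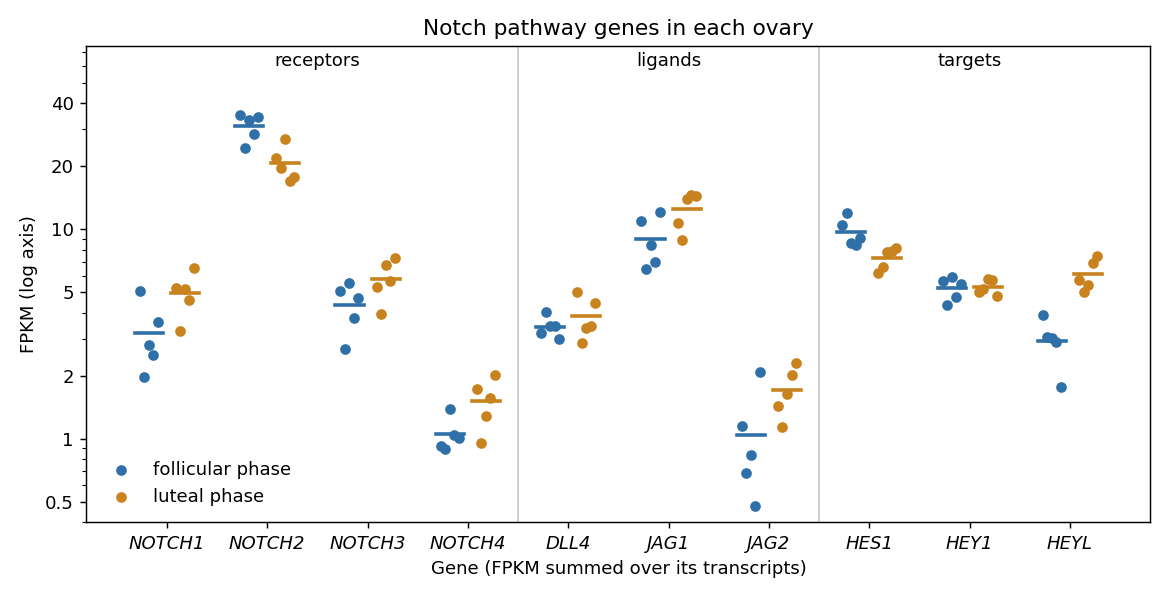
FPKM of each Notch pathway gene (log axis) in the 5 follicular phase ovaries (blue) and the 5 luteal phase ovaries (orange), with points for ovaries and bars for the mean of a phase. NOTCH2 lies above the other genes in both phases, and the phases do not overlap for HES1 and HEYL.

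The ovaries bore the marks of their phase. Of 7 corpus luteum markers, 7 rose in the luteal phase, with a summed level of 6001 to 8176 FPKM against 169 to 204 in the follicular phase, among them STAR (log2 fold change 7.35), OXT (10.26), CYP11A1 (4.87) and PTGFR (4.18). Of 8 granulosa cell markers, 4 fell, among them AMH (-1.42), INHBB (-1.41) and FSHR (-0.94), and NR5A2 rose (1.58), while CYP19A1, INHA and INHBA were not called, with summed levels of 125 to 716 and 245 to 1133 FPKM. Of 8 oocyte markers, 4 fell, among them BMP15 (-1.55), ZP3 (-1.24) and GDF9 (-0.91), and KIT, a receptor that other cell types also carry, rose (2.59). Of 9 ovarian stroma markers, 3 rose, among them LUM (1.51) and COL3A1 (0.75), and 3 fell, among them TCF21 (-0.86). Of 6 leukocyte markers, CSF1R rose (0.95), and none of the other 5 was called, while 2 of the 6 were called without follicular phase replicate 5. None of these markers was listed at 0 in any ovary. The counts of all marker lists stand beside 15.9% of all genes called higher and 27.8% called lower. In whole ovaries, fewer cells of a type and less RNA per cell cannot be told apart.

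Among the receptors, NOTCH2 was at 22.0, 19.7, 27.1, 17.0 and 17.7 FPKM in luteal phase replicates 1 to 5 and at 35.3, 24.4, 33.3, 28.4 and 34.5 in follicular phase replicates 1 to 5. Of the luteal phase ovaries, 4 lay below every follicular phase ovary, and luteal phase replicate 3 lay above follicular phase replicate 2. NOTCH2 fell by 0.60 on the log2 scale (standard error 0.14, limma adjusted p = 0.00564). This call held in 19 of 19 alternative analyses of the gene, with an adjusted p between 0.00154 and 0.0272. The mean over all ovaries put NOTCH2 at percentile 82.8 of the genes tested, while NOTCH1, NOTCH3 and NOTCH4 were at percentiles 38.1, 42.9 and 20.8.

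NOTCH1, the receptor best known from endothelium and blood cell development, was at 5.24, 3.27, 5.18, 4.58 and 6.52 FPKM in luteal phase replicates 1 to 5. In follicular phase replicates 1 to 5 it was at 5.07, 1.98, 2.82, 2.51 and 3.62. Follicular phase replicate 1 reached the level of the luteal phase ovaries, and the ranges overlapped. The log2 fold change was 0.65 (standard error 0.24, limma adjusted p = 0.0479), which lies just under the threshold. Over the alternatives its adjusted p ran from 0.00986 to 0.111, and the call was lost in 8 of the 10 analyses that left out 1 ovary, the exceptions being follicular phase replicate 1 and luteal phase replicate 2. It was also lost with no filter on low values (adjusted p = 0.0648) and with eBayes without trend (adjusted p = 0.0571).

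NOTCH3, known from vascular smooth muscle and pericytes, was at 5.29, 3.93, 6.72, 5.67 and 7.26 FPKM in luteal phase replicates 1 to 5 and at 5.10, 2.70, 5.53, 3.78 and 4.70 in follicular phase replicates 1 to 5. The phases overlapped over much of their range, and the log2 fold change of 0.41 (standard error 0.21) was not called (limma adjusted p = 0.136). With 1 ovary left out it ran from 0.25, without follicular phase replicate 2, to 0.54, without luteal phase replicate 2, and was not called in any of these 10 analyses. NOTCH4, a receptor of endothelial cells, was at 1.74, 0.955, 1.28, 1.56 and 2.01 FPKM in the luteal phase and at 0.929, 0.891, 1.39, 1.04 and 1.00 in the follicular phase, in the same order of replicates. Luteal phase replicates 2 and 3 lay within the follicular phase range, and the other 3 luteal phase ovaries lay above it. The log2 fold change of NOTCH4 was 0.46 (standard error 0.20, limma adjusted p = 0.0851), and without luteal phase replicate 2 it was 0.60 and passed (adjusted p = 0.0237). It also passed with aligned medians (adjusted p = 0.0446) and with quantile normalization (0.0433).

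The make-up of the receptor RNA differed between the phases. NOTCH2 made up 76.1 to 81.4% of the summed FPKM of the 4 receptors in the follicular phase ovaries and 52.9 to 70.7% in the luteal phase ovaries, and these ranges did not overlap. NOTCH1 held 6.54 to 10.9% in the follicular phase and 11.7 to 19.5% in the luteal phase, and NOTCH3 held 8.99 to 12.8% and 14.1 to 21.7%, again without overlap. NOTCH4 held 2.00 to 3.24% and 3.19 to 6.00%, which overlapped. The ratio of NOTCH2 to NOTCH1 was 6.96 to 12.3 in follicular phase ovaries and 2.72 to 6.03 in luteal phase ovaries. The summed receptor level was 39.8 ± 6.76 FPKM in the follicular phase and 32.9 ± 4.96 in the luteal phase (SD, n = 5 each), with overlapping ranges. These shares are descriptions without a test, and multiplying all values of an ovary by the same factor would not change them. They show that the receptors changed unequally, not that any of them stayed the same. The shares of an ovary add up to the whole, so a lower NOTCH2 share by itself makes the other shares larger. The shares are therefore not separate observations.

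**Figure D2:**
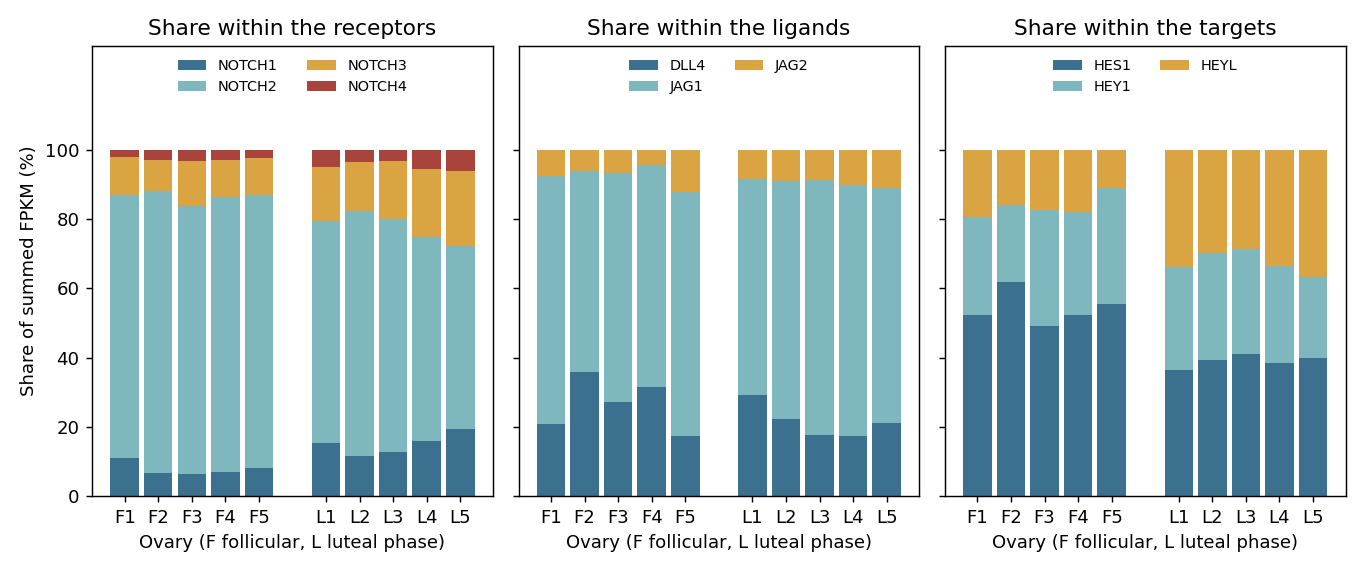
Share (%) of each gene in the summed FPKM of its role group, in follicular phase (F1 to F5) and luteal phase (L1 to L5) ovaries, for receptors, ligands and targets. NOTCH2 takes 52.9 to 70.7% of the receptors in the luteal phase against 76.1 to 81.4%, and HEYL 28.6 to 36.6% of the targets against 10.9 to 19.4%.

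Among the ligands, JAG1 was the most abundant, at 10.8, 8.85, 13.9, 14.6 and 14.4 FPKM in luteal phase replicates 1 to 5 and at 11.0, 6.47, 8.37, 6.97 and 12.1 in follicular phase replicates 1 to 5. JAG1 is the Jagged ligand tied to oocyte and granulosa cell contact and also to arterial walls. Of the luteal phase ovaries, 3 exceeded every follicular phase ovary, and the log2 fold change of 0.49 (standard error 0.20) was not called (limma adjusted p = 0.0619). It was called when follicular phase replicate 1 (adjusted p = 0.0487), follicular phase replicate 5 (0.0272) or luteal phase replicate 2 (0.0271) was left out, and after alignment of the medians (0.0253) or quantile normalization (0.0381). JAG1 thus lay near the threshold.

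JAG2, the other Jagged ligand, was at 1.44, 1.14, 1.64, 2.01 and 2.31 FPKM in luteal phase replicates 1 to 5. In follicular phase replicates 1 to 5 it was at 1.15, 0.688, 0.836, 0.481 and 2.08. Follicular phase replicate 5 stood above the other 4 ovaries of its phase, and only luteal phase replicate 5 exceeded it. The log2 fold change of JAG2 was 0.77 (standard error 0.32, limma adjusted p = 0.0738), and it was 1.04 and called without follicular phase replicate 5 (adjusted p = 0.00989). JAG2 was also called with aligned medians (adjusted p = 0.0440) and with quantile normalization (0.0319).

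DLL4, the ligand carried by sprouting endothelial cells, was at 5.05, 2.87, 3.36, 3.46 and 4.45 FPKM in luteal phase replicates 1 to 5 and at 3.21, 4.02, 3.44, 3.44 and 3.00 in follicular phase replicates 1 to 5. The luteal phase ovaries lay on both sides of the follicular phase range, and the log2 fold change was 0.14 (standard error 0.16, limma adjusted p = 0.492), or 0.035 to 0.23 with 1 ovary left out. Within the 3 ligands, JAG1 held 57.9 to 71.5% in the follicular phase and 62.4 to 73.5% in the luteal phase, DLL4 17.5 to 36.0% and 17.3 to 29.3%, and JAG2 4.42 to 12.1% and 8.34 to 10.9%. All 3 shares overlapped between the phases, unlike those of NOTCH1, NOTCH2 and NOTCH3 among the receptors.

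Among the targets, HEYL, a repressor of the HEY family known from mural cells of blood vessels, was at 5.71, 5.01, 5.43, 6.88 and 7.48 FPKM in luteal phase replicates 1 to 5 and at 3.89, 3.07, 3.04, 2.91 and 1.77 in follicular phase replicates 1 to 5. Every luteal phase ovary lay above every follicular phase ovary. HEYL rose by 1.06 on the log2 scale (standard error 0.19, limma adjusted p = 0.00127), and the call held in 19 of 19 alternatives for the summed gene, with an adjusted p of at most 0.00729. The phases did not overlap in 28.4% of all genes tested.

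HES1, the classical direct target and a repressor that keeps progenitor cells from differentiating, was at 6.18, 6.58, 7.78, 7.85 and 8.15 FPKM in luteal phase replicates 1 to 5. In follicular phase replicates 1 to 5 it was at 10.4, 12.0, 8.59, 8.45 and 9.04. The phases did not overlap, although luteal phase replicate 5 and follicular phase replicate 4 were close. HES1 fell by 0.40 on the log2 scale (standard error 0.12, limma adjusted p = 0.0198). The call was lost once medians were aligned (-0.32, adjusted p = 0.0713) and on the TPM scale (-0.30, adjusted p = 0.0851).

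HEY1, a HEY repressor of endothelium and heart, was at 5.03, 5.17, 5.80, 5.71 and 4.82 FPKM in luteal phase replicates 1 to 5 and at 5.66, 4.36, 5.89, 4.77 and 5.45 in follicular phase replicates 1 to 5. These values interleaved, and HEY1 differed by 0.03 on the log2 scale (standard error 0.11, limma adjusted p = 0.856). The 3 targets thus differed in direction, with HES1 lower, HEYL higher and HEY1 not called. HES1 held 49.1 to 61.8% of their summed FPKM in the follicular phase and 36.5 to 40.9% in the luteal phase, HEYL 10.9 to 19.4% and 28.6 to 36.6%, and HEY1 22.4 to 33.6% and 23.6 to 30.8%. The ratio of HEYL to HES1 was 0.196 to 0.372 in the follicular phase and 0.698 to 0.924 in the luteal phase. The summed level of the 3 targets was 17.9 ± 1.79 FPKM in the follicular phase and 18.7 ± 1.82 in the luteal phase (SD, n = 5 each).

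FPKM is scaled by length, so levels can be set side by side between genes. In the luteal phase the order of the median FPKM was NOTCH2, JAG1, HES1, HEYL, NOTCH3, NOTCH1, HEY1, DLL4, JAG2 and NOTCH4. NOTCH2 lay above JAG1, JAG1 above HES1 and DLL4 above JAG2 without overlap between the ovaries, while the other neighbours in this order overlapped. In the follicular phase the order was NOTCH2, HES1, JAG1, HEY1, NOTCH3, DLL4, HEYL, NOTCH1, NOTCH4 and JAG2. Here NOTCH2 and HES1, JAG1 and HEY1, and NOTCH1 and NOTCH4 were the neighbours without overlap. HEYL stood at rank 4 in the luteal phase and at rank 7 in the follicular phase.

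The 10 genes were listed with 15 transcripts, 6 genes with 1 transcript and 4 with more. In the fit over 32842 transcripts, of which 17.3% were called, 13 of the 15 passed the filter and 2 were called. NOTCH2 has 1 transcript, XM_018045986.1, which was called lower in this fit too (limma adjusted p = 0.0197). For HEYL the call rested on XM_018042166.1, at 3.63, 4.17, 5.37, 5.74 and 3.48 FPKM in luteal phase replicates 1 to 5 and at 2.92, 2.07, 1.22, 1.95 and 0.773 in follicular phase replicates 1 to 5. This transcript rose by 1.38 on the log2 scale (standard error 0.32, adjusted p = 0.0152), without overlap of the phases. The phases did not overlap in 15.3% of all transcripts tested.

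The HEYL transcript XM_018042168.1 ran from 0.0270 to 3.89 FPKM in luteal and from 0.651 to 1.07 in follicular phase ovaries (log2 fold change 0.02, adjusted p = 0.990). Its share of HEYL was 0.497 to 51.9% in luteal phase ovaries, so the division between these transcripts varied widely among ovaries. NOTCH3 came mainly from XM_018051292.1, at 93.0 to 99.9% of the gene in luteal and 71.8 to 99.6% in follicular phase ovaries. The log2 fold change of that transcript was 0.64 (standard error 0.22, limma adjusted p = 0.0739), against 0.41 for the whole gene.

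NOTCH4 showed the most uneven division. XM_018038809.1 was listed at 0 in follicular phase replicate 5, where XM_018038808.1 held 100% of the gene, while XM_018038808.1 was listed at 0 in luteal phase replicate 3 and follicular phase replicate 4. The summed NOTCH4 level in these ovaries, from 1.00 to 1.28 FPKM, lay within that of the others. A listed 0 in such a table can be a failed estimate. The main HEY1 transcript, XM_005689120.3, held 76.1% or more of the gene in every ovary. Genes with 1 transcript had adjusted p-values of 0.111 for NOTCH1 and 0.0556 for HES1 in the transcript fit, so these 2 calls were not made there.

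**Figure D3:**
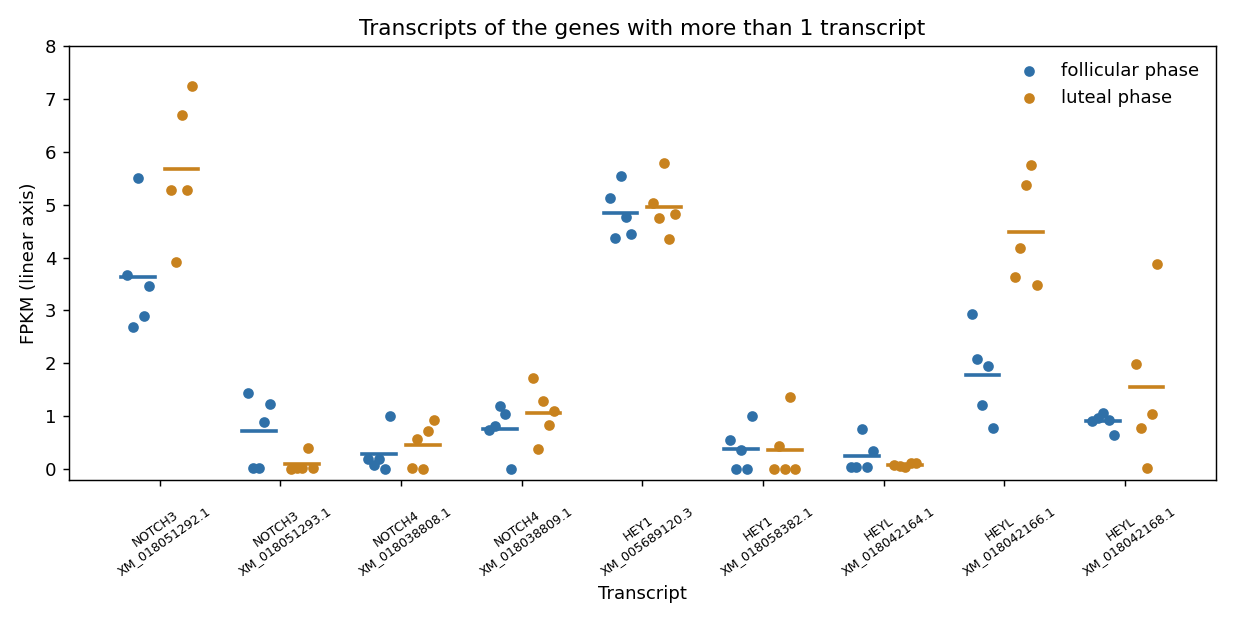
FPKM (linear axis) of the transcripts of NOTCH3, NOTCH4, HEY1 and HEYL in follicular phase (blue) and luteal phase (orange) ovaries, with points for ovaries and bars for the mean of a phase. The HEYL transcript XM_018042166.1 separates the phases, at 3.48 to 5.74 FPKM against 0.773 to 2.92, as do 15.3% of all transcripts tested.

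Endothelial cells carry NOTCH1, NOTCH4, DLL4, JAG1, JAG2 and HEY1 in many tissues, and their markers moved with the phase. Of 12 endothelial markers, 11 rose in the luteal phase, among them KDR (log2 fold change 1.59), ESAM (1.52), CDH5 (1.41) and EGFL7 (1.14), and CLDN5 was not called. Their summed level was 305.5 to 407 FPKM in luteal and 176 to 215 in follicular phase ovaries, and none was listed at 0 in any ovary. DLL4 amounted to 0.921 to 1.43 FPKM per 100 FPKM of these markers in luteal and to 1.52 to 2.24 in follicular phase ovaries. For NOTCH4 these values were 0.313 to 0.495 and 0.496 to 0.649, and for HEY1 1.19 to 1.69 and 2.43 to 3.04. The NOTCH4 ranges nearly touched.

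Relative to the endothelial markers, 5 of the 10 genes were lower in every luteal phase ovary than in every follicular phase ovary. Of all genes tested, 70% were lower without overlap on this scale and 2.23% higher, so these 5 genes do not stand out. The marker sum itself was higher in every luteal phase ovary, which by arithmetic puts a gene of equal FPKM lower on this scale. Besides DLL4, NOTCH4 and HEY1 these were NOTCH2, at 4.36 to 7.41 against 13.6 to 18.9, and HES1, at 1.74 to 2.15 against 4.01 to 6.69. NOTCH1, NOTCH3, JAG1, JAG2 and HEYL overlapped between the phases on this scale. HEYL was at 1.49 to 1.86 per 100 FPKM in luteal and at 0.900 to 2.08 in follicular phase ovaries. These ratios are descriptions, chosen after the values were seen, and the part of the endothelial markers in the changes of NOTCH1 and HEYL was not tested.

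**Figure D4:**
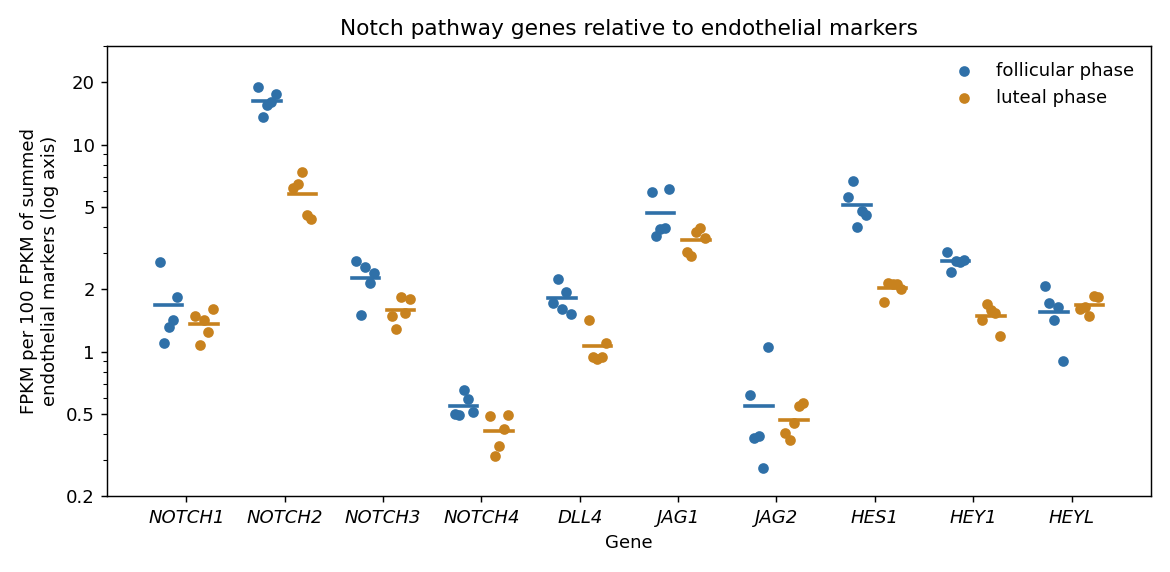
FPKM of each Notch pathway gene per 100 FPKM of 12 summed endothelial markers (log axis), in follicular phase (blue) and luteal phase (orange) ovaries, with points for ovaries and bars for the mean of a phase. NOTCH2, NOTCH4, DLL4, HES1 and HEY1 lie lower in every luteal phase ovary, as do 70% of all genes tested on this scale, and HEYL overlaps.

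Mural cells of blood vessels carry NOTCH3 and HEYL. Of 10 pericyte and smooth muscle markers 5 rose and 5 fell in the luteal phase. RGS5 (log2 fold change 0.84), KCNJ8 (0.80), CSPG4 (0.67), MCAM (0.62) and PDGFRB (0.61) rose, and these are known from pericytes. MYH11 (-1.25), CNN1 (-1.07), ACTA2 (-0.81), TAGLN (-0.66) and DES (-0.65), the contractile genes of smooth muscle, fell. The sum of the 10 was 743 to 1152 FPKM in luteal and 1274 to 1565 in follicular phase ovaries, none was listed at 0, and their part in the rise of HEYL was not tested.

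Beyond the 10 genes, 67 further genes of the pathway were listed by role, of which 66 were in the table and 59 passed the filter. Of these, 17 were higher and 17 lower in the luteal phase, together 57.6% of those tested, against 43.7% of all genes. With aligned medians 19 were higher and 11 lower, and on the TPM scale 20 and 8. The median log2 fold change was -0.07, against -0.14 over all genes tested and 0.43 over the 10 genes. Calls lower in the luteal phase were 11 without follicular phase replicate 3 and 10 without luteal phase replicate 4, where the share of all genes called lower also fell, from 27.8% to 23.7% and 21.9%. It was 19.9% with aligned medians and 17.0% on the TPM scale.

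Of the 5 other ligands, only DLL1 and DLK2 passed the filter, and DLL1 was called. DLL1, a Delta-like ligand like DLL4, was at 4.00 ± 0.837 FPKM in luteal and 1.70 ± 0.337 in follicular phase ovaries (SD, n = 5 each), without overlap (log2 fold change 1.19, standard error 0.17, limma adjusted p = 0.000291). DLL1 was at 0.969 to 1.18 times the level of DLL4 in luteal phase ovaries and at 0.421 to 0.558 times in follicular phase ovaries. These ratios did not overlap between the phases. DLK1, DLL3 and DNER were below the filter.

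Of 6 glycosyltransferases, which put sugars on the receptors and so tune their choice of ligand, 2 rose and 1 fell. Together these are 50% of the list, against 43.7% of all genes. LFNG, or lunatic fringe, rose from 2.39 ± 0.130 to 3.78 ± 0.691 FPKM (log2 fold change 0.62, adjusted p = 0.00287). MFNG, or manic fringe, rose by 0.50 (adjusted p = 0.0244), and RFNG, or radical fringe, fell by 0.30 (adjusted p = 0.0252). The RFNG call was lost once medians were aligned (adjusted p = 0.0608) and on the TPM scale (0.188), and the MFNG and RFNG calls were each lost in 4 of the 10 analyses that left out 1 ovary. For MFNG these were follicular phase replicates 1 and 4 and luteal phase replicates 1 and 5, and for RFNG follicular phase replicates 3 and 5 and luteal phase replicates 3 and 4.

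Of 6 genes that ubiquitinate or internalise ligands, NEURL1B rose (log2 fold change 0.51) and NEURL1 (-0.77) and EPN1 (-0.34) fell, while the main ligand ubiquitin ligase MIB1 was not called. The calls are 50% of the list, against 43.7% of all genes. NEURL1 was at 0.0930 ± 0.0341 and 0.242 ± 0.115 FPKM, near the filter. The NEURL1 and EPN1 calls were lost on the TPM scale (adjusted p = 0.0559 and 0.153), the NEURL1 call also with quantile normalization (0.0622) and the EPN1 call with aligned medians (0.0692). The NEURL1 call was also lost without follicular phase replicates 1, 3 and 5 and luteal phase replicates 1, 4 and 5, each left out in turn, and the EPN1 call without follicular phase replicates 1 and 3 and luteal phase replicates 3 and 4.

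Of 9 genes of the proteases that cut the receptors, subunits without catalytic activity included, 4 rose and none fell. The 4 calls are 44.4% of the list, close to the 43.7% of all genes called in either direction. Of all genes, 15.9% were called higher and 27.8% lower. ADAM10, which makes the cut outside the membrane after ligand binding, was at 45.9 ± 3.11 FPKM in luteal and 35.2 ± 0.915 in follicular phase ovaries (log2 fold change 0.38, limma adjusted p = 0.000619). ADAM17, a related protease, rose by 0.38 (adjusted p = 0.00225). Of the subunits of gamma-secretase, which cuts within the membrane, NCSTN rose by 0.29 (adjusted p = 0.0183) and PSENEN by 0.33 (adjusted p = 0.00437). The catalytic subunit PSEN2 (0.13, adjusted p = 0.338) was not called.

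Of 11 cytoplasmic regulators, 6 rose and 3 fell, together 81.8% of the list, against 43.7% of all genes. Of all genes, 15.9% were called higher and 27.8% lower. NUMB, an adaptor that sends receptors to degradation, rose from 12.5 ± 0.652 to 16.3 ± 1.09 FPKM (log2 fold change 0.38, adjusted p = 0.00157), while its paralogue NUMBL fell from 7.57 ± 1.03 to 4.41 ± 0.418 (-0.76, adjusted p = 0.000352). Of the Deltex genes, which encode ubiquitin ligases, 2 rose, 2 fell and DTX3L was not called. DTX1 rose by 1.11 (adjusted p = 0.000315) and DTX2 by 0.51 (adjusted p = 0.0218), and DTX3 fell by 0.81 (adjusted p = 0.000125) and DTX4 by 0.73 (adjusted p = 0.00617), with overlap of the phases for DTX2 alone among these 4. Over all genes tested, the phases did not overlap in 28.4%.

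Of 9 nuclear coactivators tested, 4 fell and none rose, again 44.4% of the list, where 27.8% of all genes were called lower and 15.9% higher. RBPJ, the DNA-binding partner of all 4 receptors, was at 20.7 ± 1.37 FPKM in luteal and 25.0 ± 3.47 in follicular phase ovaries (log2 fold change -0.27, limma adjusted p = 0.0415). That call was lost in 7 of 10 analyses without 1 ovary, namely without follicular phase replicates 3, 4 and 5 and luteal phase replicates 1, 2, 4 and 5. It was also lost once medians were aligned (adjusted p = 0.139), on the TPM scale (0.243) and with eBayes without trend (0.0614). SNW1 fell by 0.43 (adjusted p = 0.000167), KAT2A by 0.48 (adjusted p = 0.00891) and the Mastermind-like gene MAML3 by 0.58 (adjusted p = 0.0183), a call lost on the TPM scale (adjusted p = 0.0735). MAML1 (-0.28, adjusted p = 0.0673) and MAML2 (0.08, adjusted p = 0.712) were not called, and MAML1 passed without follicular phase replicate 2 (adjusted p = 0.0450).

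Of 11 nuclear corepressors tested, 6 fell and 1 rose, together 63.6% of the list, against 43.7% of all genes. Of all genes, 27.8% were called lower and 15.9% higher. HDAC1 was the corepressor that rose, by 0.35 (limma adjusted p = 0.000365). TLE2, a Groucho-type corepressor that binds HES proteins, fell by 0.91 (adjusted p = 0.00614), CTBP2 by 0.54 (adjusted p = 0.000606), HDAC2 by 0.48 (adjusted p = 0.000810) and SPEN, which holds RBPJ targets silent, by 0.44 (adjusted p = 0.0102). The SPEN call was lost on the TPM scale (adjusted p = 0.0744). These genes act far beyond the Notch pathway.

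Of 5 other target genes tested, 2 rose and 1 fell, together 60% of the list, against 43.7% of all genes. NRARP, a target that dampens the pathway, was at 2.37 ± 0.339 FPKM in luteal and 1.01 ± 0.552 in follicular phase ovaries (SD, n = 5 each), a rise of 1.25 on the log2 scale (standard error 0.26, limma adjusted p = 0.00316) and no overlap, although follicular phase replicate 2, at 1.96, was close to the luteal phase ovaries. HES2 rose by 0.99 (adjusted p = 0.00104). HEY2 fell by 0.62 (adjusted p = 0.0483), a call lost in 13 of 19 alternatives, among them those without follicular phase replicates 1, 2 or 5 or luteal phase replicates 2, 3, 4 or 5, and HES4 was not called (-0.22, adjusted p = 0.324). HEY1 and HEY2, both known from endothelium and heart, thus had log2 fold changes of 0.03 and -0.62, beside 1.06 for HEYL.

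**Figure D5:**
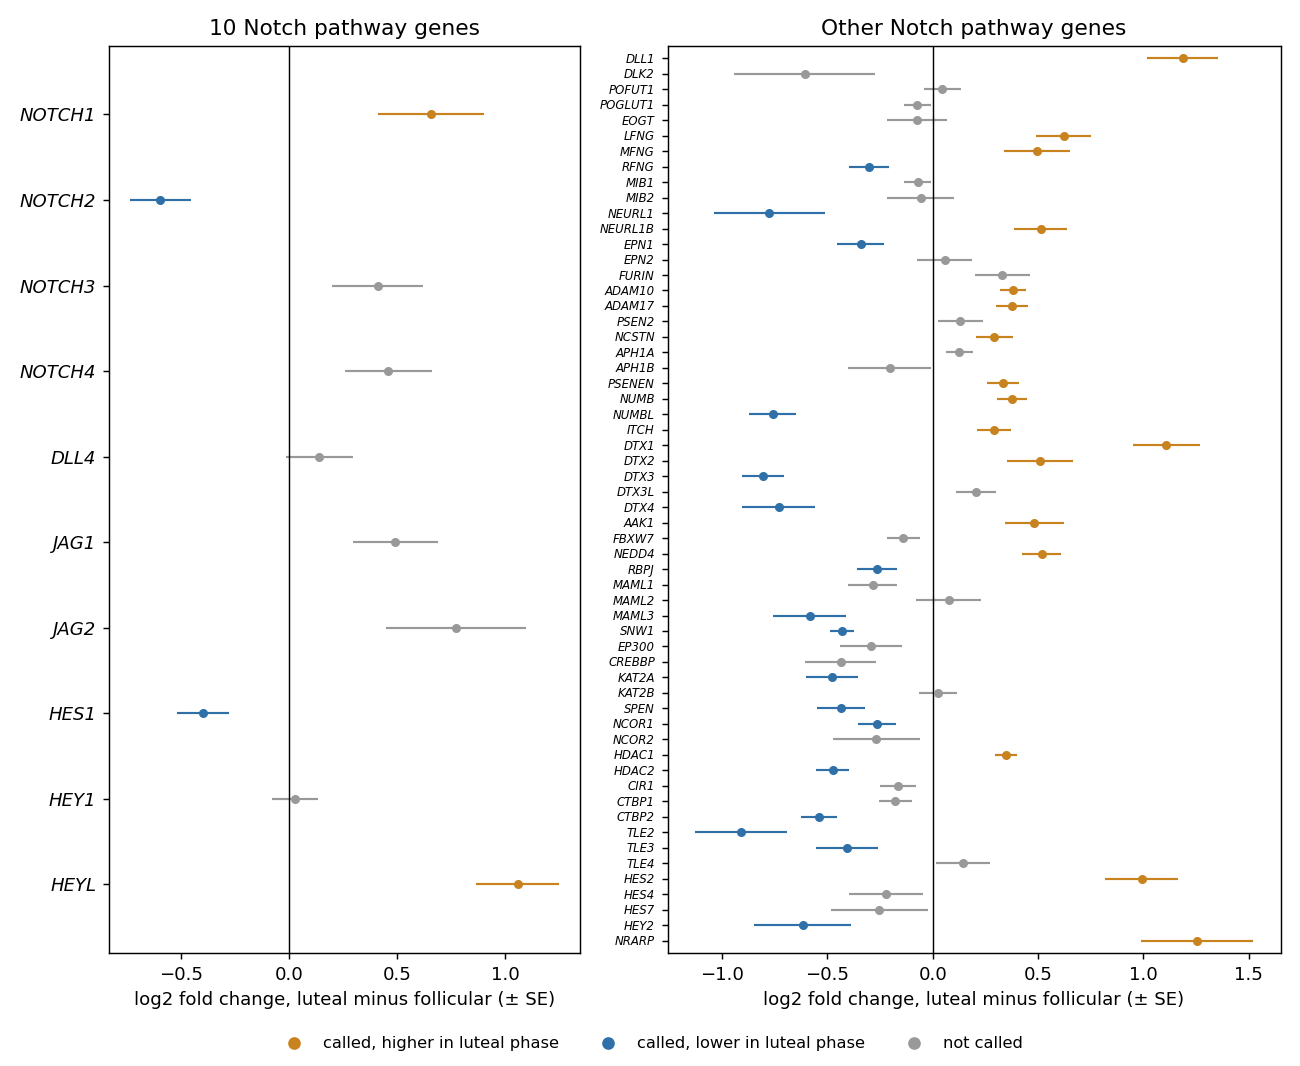
log2 fold change (luteal minus follicular, ± standard error) of the 10 genes and of other pathway genes tested, coloured by their limma call. HEYL (1.06), DLL1 (1.19), DTX1 (1.11) and NRARP (1.25) lie farthest to the right, and TLE2 (-0.91) farthest to the left.

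For each of the 10 genes, the genes with the most similar pattern over the 10 ovaries were sought among genes with a mean of at least 1 FPKM. Likeness was the root mean square difference of log2(FPKM + 0.1), each gene being centred on its own mean, and it reflects the phase difference as well as the differences within a phase. Nearest to NOTCH2 were PDZRN3 (0.0795) and MMP2 (0.0817), a gelatinase of the matrix. Nearest to HEYL were TMEM220 (0.197) and SLC9B2 (0.209), and ZNF771 (0.0864) was among the nearest to HES1. These distances compare with a root mean square of 0.372 for NOTCH2, 0.604 for HEYL and 0.266 for HES1 around their own means.

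The genes nearest to NOTCH1 were B3GALT2 (0.196) and SEMA3G (0.224), a secreted semaphorin. For NOTCH3 they were SLC26A10 (0.117) and FAM214B (0.138), and for NOTCH4 COL13A1 (0.154), a transmembrane collagen, and PARK2 (0.170). For JAG1 they were DOCK10 (0.137) and TMTC1 (0.143), for JAG2 ST6GALNAC2 (0.190) and MAPT (0.274), the gene of tau. The nearest patterns to DLL4 were TMEM181 (0.103) and GAS2L1 (0.114), and to HEY1 ABHD14B (0.0673) and SH3BGRL3 (0.0817). None of these genes is on the pathway list.

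By the RefSeq annotation, 2 annotated noncoding transcripts of the table lay within 100 kb of any of the 10 genes. XR_001297187.2, near NOTCH4, was at 0.598 ± 0.193 FPKM in luteal and 1.14 ± 0.398 in follicular phase ovaries (log2 fold change -0.82, limma adjusted p = 0.0801 over all transcripts). XR_001919924.1, near JAG2, was at 0.256 ± 0.0835 and 0.468 ± 0.122 FPKM (-0.68, adjusted p = 0.110). Neither was called. NOTCH4 and JAG2 themselves had log2 fold changes of 0.46 and 0.77.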

How the data were processed

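Directional libraries from ribosomal RNA-depleted RNA of 5 luteal and 5 follicular phase goat ovaries were sequenced. The authors used HISAT2 for alignment and StringTie for assembly, and deposited FPKM per transcript and ovary from Cuffdiff. The genome build is not given in the sources used here. The tables give FPKM alone, so the number of reads behind a value, and its counting error, cannot be given here. FPKM summed to 452508 to 503276 per luteal and 492324 to 540124 per follicular phase ovary.

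Protein-coding FPKM were summed by symbol. Genes or transcripts with at least 0.1 FPKM in at least 5 ovaries were fitted with limma 3.58.1 (eBayes with trend) in R 4.3.3 on log2(FPKM + 0.1), a scale that understates changes of low genes. Figures and summaries used Python 3.11.15 with pandas 2.3.3 and matplotlib 3.10.9.

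The 10 genes and all lists were chosen with earlier results of these data known. Named are the 10 genes, in each list up to 4 called genes with the largest change, core pathway genes, the 2 nearest patterns per gene, and a few genes of the marker and pathway lists named after their values were seen. A few genes that this rule names are not reported here. CYP11A1 was matched through RefSeq synonyms (assembly ARS1.2) to LOC102173131. TLE1, HSD3B1, HBB and HBA were not analysed here, and the blood marker ALAS2 was below the filter. Alternatives were other pseudocounts (1 and 0.01), filters, scalings and variance priors, a replicate block, single transcripts, and leaving out each ovary.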

Additional observations from a re-analysis of the deposited data

Results flagged for a closer look

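Among 204 groups of 5 ovaries examined for the values named above, 7 held an ovary whose gap to the nearest other ovary was above Dixon's limit for 5 samples. Chance gives about 1 in 20, so flags were no more frequent here than by chance, and none of these ovaries is shown to be an outlier. Of the 10 genes, none was flagged at gene level. Transcripts of 2 of them were. The NOTCH3 transcript XM_018051293.1 was at 0.395 FPKM in luteal phase replicate 4 and at most 0.0214 in the other luteal phase ovaries, and the NOTCH4 transcript XM_018038808.1 was at 1.00 FPKM in follicular phase replicate 5 and at most 0.193 in the other follicular phase ovaries. Follicular phase replicate 2 was highest of its phase for NRARP (1.96 FPKM, the next 0.929) and follicular phase replicate 4 for LFNG (2.62, the next 2.39). Luteal phase replicate 2 was lowest for MAML1 (2.85 FPKM, the next 3.74). Luteal phase replicate 1 was highest for PSEN2 (11.6, the next 9.81) and HES4 (2.95, the next 2.02).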

How the results depend on the processing

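NOTCH2, HEYL, DLL1, LFNG, ADAM10, ADAM17, NUMB, NUMBL, DTX1, DTX3, NRARP and HES2 kept their direction and call in 19 of 19 alternatives for summed genes, single transcripts not counted, and the HEYL transcript XM_018042168.1 was not called (adjusted p = 0.990). Of the 10 genes, 7 were called after quantile normalization, where 41.9% of all genes were called. Calls higher in the luteal phase were 5 after quantile normalization and after a shift to a common median, 1 with no filter on low values and with eBayes without trend, and 1 to 4 when 1 ovary was left out, where 33.6%, 42.6% and 35.7 to 45.6% of all genes were called. Calls lower in the luteal phase were 1 after a shift to a common median and on the TPM scale. Other pathway genes called lower numbered 11 after the shift, 8 on the TPM scale and 10 to 18 with 1 ovary left out. Over all genes, 2610 were called lower on the TPM scale. On the TPM scale 1 transcript of the 10 genes was called, where 4614 of all 32842 transcripts were called. Uncalled genes changed sign: HEY1 ran from -0.035 to 0.071 with 1 ovary left out and was -0.41 for XM_018058382.1, and MAML2 ran from -0.054 to 0.13 with 1 ovary left out. The cause was not tested.

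Whether ovaries with equal replicate numbers share more than the number is not stated in the sources used here. Deviations of same-numbered ovaries correlated at 0.0258 to 0.199 across genes, and 2 of the 5 luteal phase ovaries correlated best with their own number. With a replicate block 6 of the 10 genes were called, 5 higher and 1 lower in the luteal phase, and 4 of their transcripts, while 45.7% of all genes and 13.6% of all transcripts were called. HES1 (adjusted p = 0.0516) was lost, and NOTCH3 (0.0228), JAG1 (0.0348) and JAG2 (0.0433) were gained. Among the other named genes RBPJ (0.0585) was lost and MAML1 (0.0395) gained, and 8 of 8 granulosa cell markers were called, against 5 without the block.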
